A study of Mus musculus with 9 samples.

Results

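The let-7 family with miR-98 was described in exosomal small RNA of TCMK-1 cells, an established line of mouse renal tubular epithelial cells labelled with the C3H background. Its 9 members were the rows of the deposited table named mmu-let-7a-5p, mmu-let-7b-5p, mmu-let-7c-5p, mmu-let-7d-5p, mmu-let-7e-5p, mmu-let-7f-5p, mmu-let-7g-5p, mmu-let-7i-5p and mmu-miR-98-5p, out of 1978 mature miRNAs listed. All 9 passed the filter on low counts, which left 1682 miRNAs. They were chosen by name, with earlier results of these data known.

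There were 3 groups of 3 libraries. LV-NC cells carried an empty control lentivirus and were grown under normal culture. H/R-LV-NC cells carried the same virus and were exposed to hypoxia/reoxygenation (H/R), which was 1% O2 for 24 h followed by 21% O2 for 12 h. H/R-LV-BMAL1 cells went through H/R with a lentivirus that expresses a Flag-tagged BMAL1, a transcription factor of the circadian clock, from the CMV promoter. Every group was thus infected, at a multiplicity of infection of 100, and every virus also carried EGFP and a puromycin resistance gene. No group received BMAL1 without H/R, so the virus was compared under H/R only. BMAL1 itself is not a miRNA and could not be checked in these files. Counts are of unique molecular identifiers (UMIs), tags by which PCR copies of 1 cDNA are counted once. Below, H/R-LV-NC is called the H/R control and H/R-LV-BMAL1 is called BMAL1. Nothing in the labels tells whether replicate libraries were made from separate cultures, and p-values therefore measure only the spread between these libraries.

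let-7 was found in Caenorhabditis elegans as a regulator of developmental timing and is conserved in sequence up to mammals. In mammals it is a family of several genes whose mature products repress shared target mRNAs, among them those of RAS and HMGA2, through pairing of the seed at the 5′ end, and LIN28 blocks the maturation of its precursors. The family is abundant in differentiated tissues, and in rat kidney tubular cells let-7b is known to target the mRNA of the type I TGF-β receptor.

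The 9 mature sequences, from the RefSeq table of GRCm38.p6, are shown because the members differ by few bases and are therefore hard to tell apart in short reads. Capitals mark the seed, bases 2 to 8.
mmu-let-7a-5p: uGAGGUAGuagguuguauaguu
mmu-let-7b-5p: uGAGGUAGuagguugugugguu
mmu-let-7c-5p: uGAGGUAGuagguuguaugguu
mmu-let-7d-5p: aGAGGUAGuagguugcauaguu
mmu-let-7e-5p: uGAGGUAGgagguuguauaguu
mmu-let-7f-5p: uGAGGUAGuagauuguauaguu
mmu-let-7g-5p: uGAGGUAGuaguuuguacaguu
mmu-let-7i-5p: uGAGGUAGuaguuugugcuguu
mmu-miR-98-5p: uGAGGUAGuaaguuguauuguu

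All 9 were 22 bases long and shared the seed. Positions below are counted from 1 at the 5′ end, with the base of the first miRNA named first. Of the 36 pairs of members, 4 differed by a single base: let-7a-5p and let-7c-5p by A19G, let-7a-5p and let-7e-5p by U9G, let-7a-5p and let-7f-5p by G12A, and let-7b-5p and let-7c-5p by G17A. The sources used here do not give how the authors assigned reads that fit several members, and values of such pairs may share reads. let-7i-5p stood farthest from let-7a-5p, with 4 differences (G12U, A17G, U18C and A19U). Among the 1679 miRNAs of the file with a sequence in the table, 11 had this seed. The other two were let-7k at a mean of 112 CPM (UMI counts scaled to the same library total) and miR-1961 at 2.80 CPM.

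The positions of the members in the files were equal to those of GRCm38.p6. let-7a-5p (chr13:48538239-48538260), let-7f-5p (chr13:48537889-48537910) and let-7d-5p (chr13:48536078-48536099), all on the minus strand, come from hairpins inside an exon of the long noncoding RNA 6720427I07Rik. let-7c-5p (chr15:85706616-85706637) and let-7b-5p (chr15:85707325-85707346), on the plus strand, lie in an exon of the noncoding transcript Lncppara, with 621 bases between their hairpins. let-7e-5p (chr17:17830366-17830387, plus strand) lies in an intron of Spaca6, 367 bases from the hairpin of miR-125a. let-7g-5p (chr9:106178846-106178867, plus strand) lies in an intron of Wdr82. miR-98-5p (chrX:151913229-151913250, plus strand) lies in an intron of the ubiquitin ligase gene Huwe1. let-7i-5p (chr10:122985698-122985719, minus strand) lies in the pseudogene D630033A02Rik. let-7a-5p, let-7c-5p and let-7f-5p are each held by 2 hairpins, the second ones being Mirlet7a-2 on chromosome 9, Mirlet7c-1 on chromosome 16 and Mirlet7f-2 beside miR-98 on chromosome X, so that their counts cannot be split by locus.

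The 6 libraries without BMAL1 held 807158 to 1447040 UMIs and the BMAL1 libraries 3357851 to 4057046. The first BMAL1 library stood apart, since the standard deviation of its log2 deviations from the group means was 0.74 against 0.43 to 0.54 in the others. The miR-200 family of epithelial cells was low. Its sum in CPM was 26.5 to 47.0 in LV-NC, 37.2 to 112 in the H/R control and 22.9 to 36.6 in BMAL1. The tubule miRNAs miR-192-5p, miR-194-5p and miR-204-5p summed to 188 to 256, 235 to 290 and 311 to 315 CPM in the same order. Of these, miR-204-5p alone had a lower mean in BMAL1 than in the H/R control, at 7.26 against 16.0 CPM. All 5 miR-200 family members and all 3 tubule miRNAs had a UMI in every library. Blood miRNAs, 6 in the list, summed to 379 to 503 CPM in the H/R control and 176 to 238 CPM in BMAL1, with miR-144-3p at 0 in at least 1 library. The endothelial pair miR-126a-3p and miR-126a-5p summed to 358 to 548 CPM and 634 to 995 CPM in the same groups, and 4 mesenchymal miRNAs to 16955 to 18071 CPM and 20752 to 22012 CPM. The mesenchymal miRNAs did not move together. Their mean CPM in the H/R control and BMAL1 were 10268 and 13831 for miR-143-3p and 6153 and 6746 for miR-199a-3p. They were 918 and 774 for miR-145a-5p and 251 and 196 for miR-214-3p, lower in BMAL1. The part of these differences, and of the depth, in the results below was not tested.

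The family made up 31.9% to 39.3% of the exosomal miRNA in the 9 libraries, with no difference between groups beyond their spread. Its share of all UMIs was 39.3%, 36.8% and 33.8% in LV-NC, 34.9%, 31.9% and 36.1% in the H/R control, and 35.7%, 37.1% and 35.2% in BMAL1. The means were 36.6% ± 2.73, 34.3% ± 2.14 and 36.0% ± 0.948 (SD, n = 3), and the ranges of all 3 groups overlapped. The Wilson 95% intervals of the single libraries were at most 0.203 percentage points wide, which covers counting error only. A share of UMIs does not tell the number of molecules per exosome or per cell, and fewer exosomes of one kind cannot be told apart from less miRNA in each.

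let-7c-5p and let-7b-5p were the most abundant members, with means over the 9 libraries of 84813 and 83018 CPM. let-7f-5p followed with 51083 CPM, let-7a-5p with 47756, let-7i-5p with 47514 and let-7e-5p with 30797 CPM. let-7d-5p had 7108 CPM, let-7g-5p 3377 CPM and miR-98-5p 986 CPM. Within this order let-7c-5p and let-7b-5p, let-7f-5p and let-7a-5p, and let-7a-5p and let-7i-5p overlapped over the libraries, and the other neighbours did not. In 8 libraries 6 members were among the 10 most abundant miRNAs, and in the third BMAL1 library 5 were. The scarcest value of any member was 722 UMIs, for miR-98-5p in the second H/R control library.

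**Figure D1:**
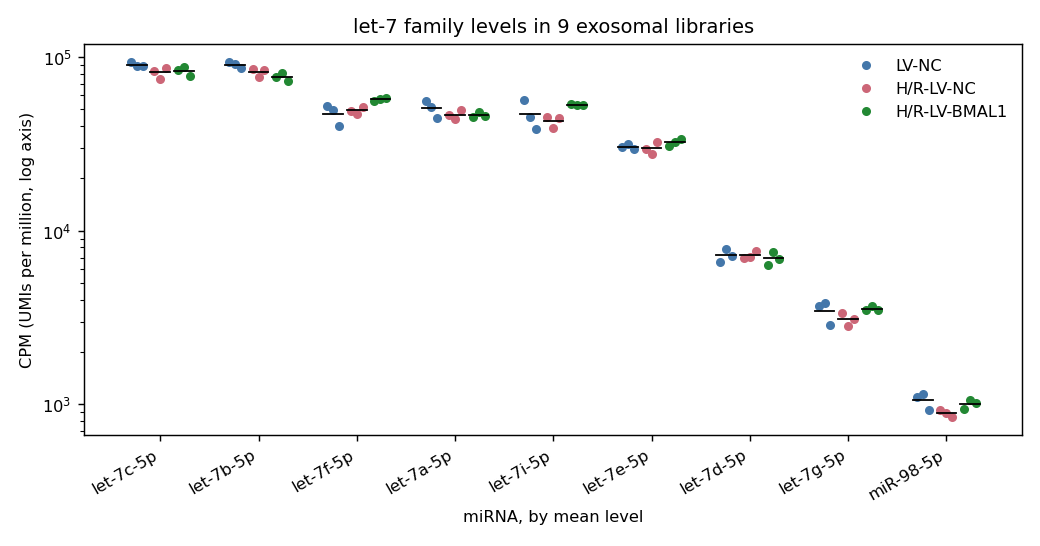
Level of the 9 members in CPM on a log axis in each library, with the mean of the 3 libraries of a group as a line. let-7c-5p and let-7b-5p lie highest in all groups and miR-98-5p, at 844 to 1150 CPM, lowest.

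In CPM the levels moved little. The coefficient of variation over the 9 libraries was 6.04% for let-7e-5p, the steadiest member, and 13.7% for let-7i-5p, with a median of 8.20%. For the 73 other miRNAs with a mean of at least 1000 CPM the median was 18.3%. let-7i-5p, the member farthest in sequence from let-7a-5p, had 56308, 44993 and 38591 CPM in LV-NC, 44966, 39028 and 44730 CPM in the H/R control and 53475, 52765 and 52767 CPM in BMAL1. The BMAL1 libraries lay above all H/R control libraries but inside the range of LV-NC. let-7f-5p had 52207, 49181 and 39932 CPM in LV-NC, 48964, 47168 and 51572 CPM in the H/R control and 56018, 56920 and 57785 CPM in BMAL1, above every library of the other two groups. let-7b-5p had 93693, 90358 and 86761 CPM in LV-NC, 84778, 76606 and 84233 CPM in the H/R control and 76723, 80966 and 73041 CPM in BMAL1. Both H/R groups of let-7b-5p lay below LV-NC. let-7c-5p had 93544, 88103 and 88019 CPM in LV-NC, 83259, 74289 and 86405 CPM in the H/R control and 84312, 87466 and 77918 CPM in BMAL1, again lower in both H/R groups. let-7a-5p, let-7d-5p and let-7e-5p overlapped between all groups in CPM, at 43749 to 55488, 6343 to 7858 and 27667 to 33600 CPM. let-7g-5p, at 2828 to 3847 CPM, and miR-98-5p, at 844 to 1150 CPM, were each lower in every H/R control library than in every BMAL1 library. Of all miRNAs, 1.49% lay below LV-NC in every H/R control library and 29.8% in every BMAL1 library. In every BMAL1 library 4.76% lay above the H/R control and 6.18% above LV-NC.

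The comparison of the H/R control with LV-NC asks what H/R did to the family under control virus. No member passed the test. After scaling by TMM, which assumes that most miRNAs are unchanged, edgeR's quasi-likelihood test gave log2 fold changes of -0.55 for miR-98-5p (SE 0.31) to -0.23 for let-7f-5p (SE 0.29), with adjusted p of 0.645 to 0.820 and a median of -0.41. The number of members called at an adjusted p under 0.05 was 0 of 9, with 0.0% of all miRNAs called. At an unadjusted p under 0.05 there were 0 members, beside 121 of the 1682 miRNAs. DESeq2 called 0 members, beside 0.123% of the miRNAs with an adjusted p there, and limma-voom 0, beside 0.0%. The 73 other abundant miRNAs had a median of -0.24. The groups did not overlap for let-7b-5p and let-7c-5p, both lower after H/R, beside 6.36% of all miRNAs in that direction. The median was -0.19 without the second H/R control library and -0.62 without the first one. With scaling by total UMIs the log2 fold changes lay between -0.25 and 0.06 with a median of -0.12, and 0 members were called beside 0.0595% of all miRNAs. Of the members let-7b-5p alone, which was lower, had an unadjusted p under 0.05. So did 179 of the 1682 miRNAs, 10 of them lower. let-7b-5p, let-7c-5p and miR-98-5p were lower in all H/R control libraries, as were 1.49% of the miRNAs.

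The comparison of BMAL1 with the H/R control asks what BMAL1 did under H/R. After scaling by TMM all 9 members lay higher in BMAL1 in each of its libraries, but none passed the test. let-7i-5p had 42746, 22756 and 35628 TMM-scaled CPM in the H/R control and 56912, 71623 and 94526 in BMAL1, a log2 fold change of 1.14 (SE 0.30, edgeR adjusted p = 0.0669). let-7f-5p had 46547, 27502 and 41078 TMM-scaled CPM against 59618, 77263 and 103515, a log2 fold change of 1.06 (SE 0.29, edgeR adjusted p = 0.0702). let-7b-5p had 80593, 44666 and 67092 TMM-scaled CPM against 81654, 109904 and 130843, where the lowest BMAL1 library was close to the highest H/R control library, with a log2 fold change of 0.74 (SE 0.27, edgeR adjusted p = 0.115). The other 6 had log2 fold changes of 0.80 to 1.04. All 9 had an unadjusted p under 0.05, as did 468 of the 1682 miRNAs, and 0 were called in edgeR beside 2.38% of all miRNAs. DESeq2 called 8, all but let-7b-5p (DESeq2 adjusted p = 0.0509), beside 14.7% of the 1629 miRNAs to which it gave an adjusted p, and limma-voom called 0 beside 3.45%. The members did not overlap between the groups, which held in this direction for 14.7% of all miRNAs, and their median of 0.97 was near that of the 73 other abundant miRNAs, 1.03. Without the first BMAL1 library, which stood apart, edgeR called 6 members, beside 8.0% of the 1738 miRNAs tested, and the median was 1.15. Without the third BMAL1 library 0 members were called and the median was 0.66.

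The size of the difference depended on the scaling. The TMM factors were 1.05, 1.72 and 1.26 in the H/R control and 0.940, 0.737 and 0.558 in BMAL1, and the second H/R control and the third BMAL1 libraries were the lowest and the highest in TMM-scaled CPM for all 9 members. With total UMIs the median log2 fold change of the members was 0.11 and that of all 1682 miRNAs -0.87, against -0.04 with TMM. A change of scaling moves all miRNAs by about the same amount, so the gap between the members and the median of all miRNAs had to stay about equal. It is therefore no second support for a rise. The share of the members in the library changed little. The 73 other abundant miRNAs had a median of 0.19 with total UMIs, above the 0.11 of the members. With total UMIs let-7a-5p, let-7b-5p and let-7d-5p turned to -0.01, -0.09 and -0.06, and let-7i-5p had 0.30 (SE 0.12, edgeR adjusted p = 0.0761). No member was called with total UMIs, where 30.9% of all miRNAs were. let-7f-5p and let-7i-5p, both higher, had an unadjusted p under 0.05, as did 793 of the 1682 miRNAs, 61 of them higher. On this scale let-7f-5p, let-7g-5p, let-7i-5p and miR-98-5p were higher in all BMAL1 libraries, beside 4.76% of all miRNAs, and 0 members were lower in all of them, beside 44.2%.

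**Figure D2:**
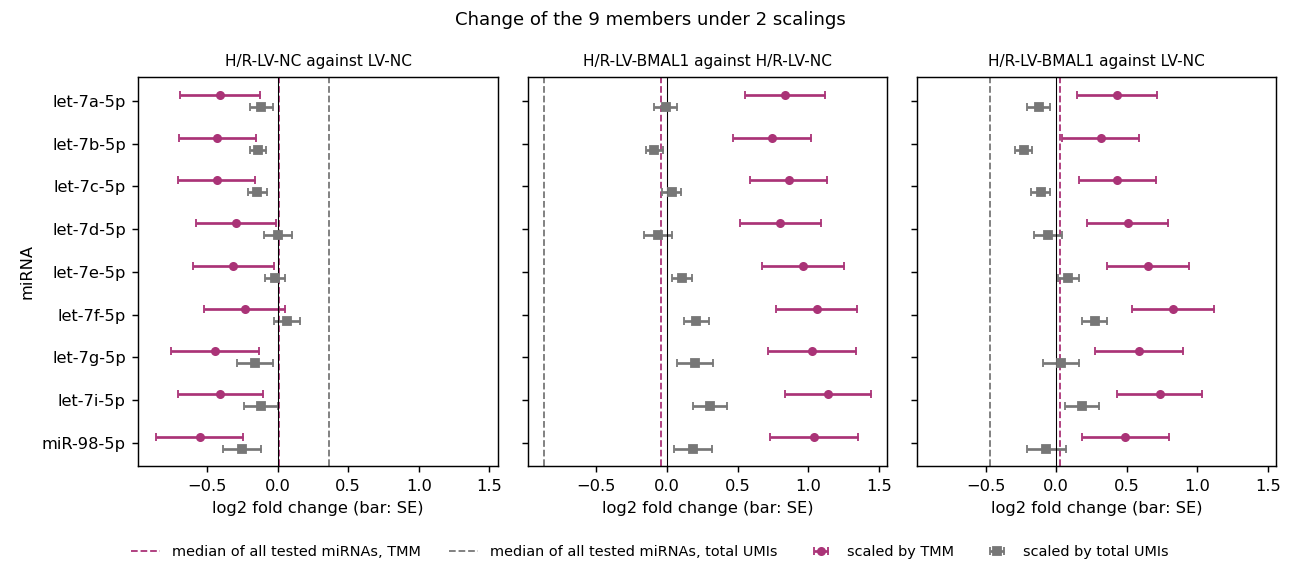
Log2 fold change of the 9 members (points, with the standard error as bars) in the 3 comparisons with scaling by TMM and by total UMIs, and the median of all 1682 miRNAs as dashed lines. For BMAL1 against the H/R control the members lie at 0.74 to 1.14 with TMM and at -0.09 to 0.30 with total UMIs, above the median of all miRNAs in both. A change of scaling leaves this gap about as it is.

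BMAL1 against LV-NC differs in both the virus and H/R and shares its libraries with the other two comparisons. The members had a TMM median of 0.50, and the 73 other abundant miRNAs 0.80. The median of the members was 0.25 without the third BMAL1 library and 0.32 with only miRNAs of at least 50 UMIs on average. let-7f-5p had the highest log2 fold change, 0.83 (SE 0.29, edgeR adjusted p = 0.136), followed by let-7i-5p with 0.73 and let-7e-5p with 0.65. These 3 had an unadjusted p under 0.05, as did 393 of the 1682 miRNAs, 223 of them higher. By edgeR 0 members were called, beside 0.238% of all miRNAs. DESeq2 called let-7f-5p alone (adjusted p = 0.0468), beside 13.5% of the 1076 miRNAs to which it gave an adjusted p, and limma-voom called 0 beside 0.297%. let-7e-5p, let-7f-5p, let-7g-5p and let-7i-5p did not overlap and were higher, beside 14.1% of the miRNAs. With total UMIs the median was -0.06 and 0 members were called beside 6.24%, the nearest being let-7b-5p with -0.23 (SE 0.06, edgeR adjusted p = 0.0508). At an unadjusted p under 0.05 there were 2 members, beside 482 of the 1682 miRNAs. The 73 other abundant miRNAs had a median of 0.24 with total UMIs. let-7f-5p was higher in all BMAL1 libraries on this scale, beside 6.18% of the miRNAs, and let-7b-5p and let-7c-5p were lower, beside 29.8%.

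The makeup of the family does not depend on how whole libraries are scaled. Each member was therefore also tested with the summed UMIs of the 9 members as the library size. The p-values were adjusted over all 1682 miRNAs, so the adjusted p of a member also depends on miRNAs outside the family. Of these 1682, 534 were called in BMAL1 against the H/R control and 1 in the H/R control against LV-NC. Adjusted p are therefore not alike between comparisons. A share of the family is relative, and when 1 abundant member takes more the others take less. By this test let-7b-5p was called lower in BMAL1 than in either control, let-7i-5p higher than in the H/R control, and let-7f-5p higher than in LV-NC. Of all miRNAs, 31.7% were called against the H/R control and 4.16% against LV-NC. Leaving out any 1 of the 6 libraries compared lost the calls of let-7b-5p and let-7i-5p against the H/R control.

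let-7b-5p made up 23.9%, 24.5% and 25.6% of the family UMIs in LV-NC, 24.3%, 24.0% and 23.3% in the H/R control, and 21.5%, 21.8% and 20.7% in BMAL1. Every BMAL1 library lay below all others. Its log2 fold change within the family was -0.16 against the H/R control (SE 0.05, edgeR adjusted p = 0.0313) and -0.21 against LV-NC (SE 0.05, edgeR adjusted p = 0.0400).

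let-7i-5p made up 14.3%, 12.2% and 11.4% in LV-NC, 12.9%, 12.2% and 12.4% in the H/R control, and 15.0%, 14.2% and 15.0% in BMAL1. It rose by 0.24 on the log2 scale against the H/R control (SE 0.08, edgeR adjusted p = 0.0467). Against LV-NC, whose first library lay at 14.3%, it overlapped, with 0.22 (edgeR adjusted p = 0.125).

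let-7f-5p made up 13.3%, 13.4% and 11.8% in LV-NC, 14.04%, 14.8% and 14.3% in the H/R control, and 15.7%, 15.4% and 16.4% in BMAL1. The 3 groups did not overlap at either step. Its log2 fold change was 0.30 against LV-NC (SE 0.06, edgeR adjusted p = 0.0321), a call, while the 2 steps did not pass alone, with 0.16 from LV-NC to the H/R control (SE 0.06, edgeR adjusted p = 0.373) and 0.14 from there to BMAL1 (SE 0.06, edgeR adjusted p = 0.103).

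In this fit 2 of the 9 members were called in BMAL1 against the H/R control, beside 31.7% of all miRNAs. The rise of let-7i-5p stood beside 1.66% of all miRNAs called higher and the fall of let-7b-5p beside 30.1% called lower. Against LV-NC 2 were called, beside 4.16%, let-7f-5p among 1.13% called higher and let-7b-5p among 3.03% called lower. In the H/R control against LV-NC 0 of 9 were called, beside 0.0595%, with 0 called by limma-voom. Of the members let-7f-5p alone, which was higher, had an unadjusted p under 0.05 there. So did 206 of the 1682 miRNAs, 204 of them higher. The calls in the BMAL1 comparisons were close to the threshold. Without any 1 of the 6 libraries compared, the adjusted p against the H/R control was 0.0527 to 0.104 for let-7b-5p and 0.0606 to 0.159 for let-7i-5p, and that of let-7i-5p was 0.0627 without the second LV-NC library, while their log2 fold changes stayed at -0.18 to -0.14 and 0.22 to 0.26. Against LV-NC, among the fits without 1 library, the calls held only without the third LV-NC or the second H/R control library. Leaving out any other library compared gave an adjusted p of 0.0556 to 0.128 for let-7b-5p and 0.0556 to 0.109 for let-7f-5p. On all 9 libraries limma-voom also called these members in both comparisons.

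Without a test, the shares of more members were apart between groups. Against the H/R control, let-7f-5p, let-7g-5p and let-7i-5p were higher in all BMAL1 libraries, beside 4.34% of all miRNAs, and let-7a-5p and let-7b-5p lower, beside 45.8%. Against LV-NC, let-7f-5p was higher, beside 5.53%, and let-7a-5p, let-7b-5p and let-7c-5p lower, beside 29.1%. Between the H/R control and LV-NC let-7f-5p alone was apart, and higher after H/R, beside 17.0%. let-7a-5p made up 13.2% to 14.1% of the family in LV-NC, 13.3% to 13.8% in the H/R control and 12.6% to 13.0% in BMAL1, a log2 difference of -0.08 from the H/R control (SE 0.05, edgeR adjusted p = 0.232) that did not pass. The shares of let-7d-5p, let-7e-5p and miR-98-5p overlapped between all groups.

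**Figure D3:**
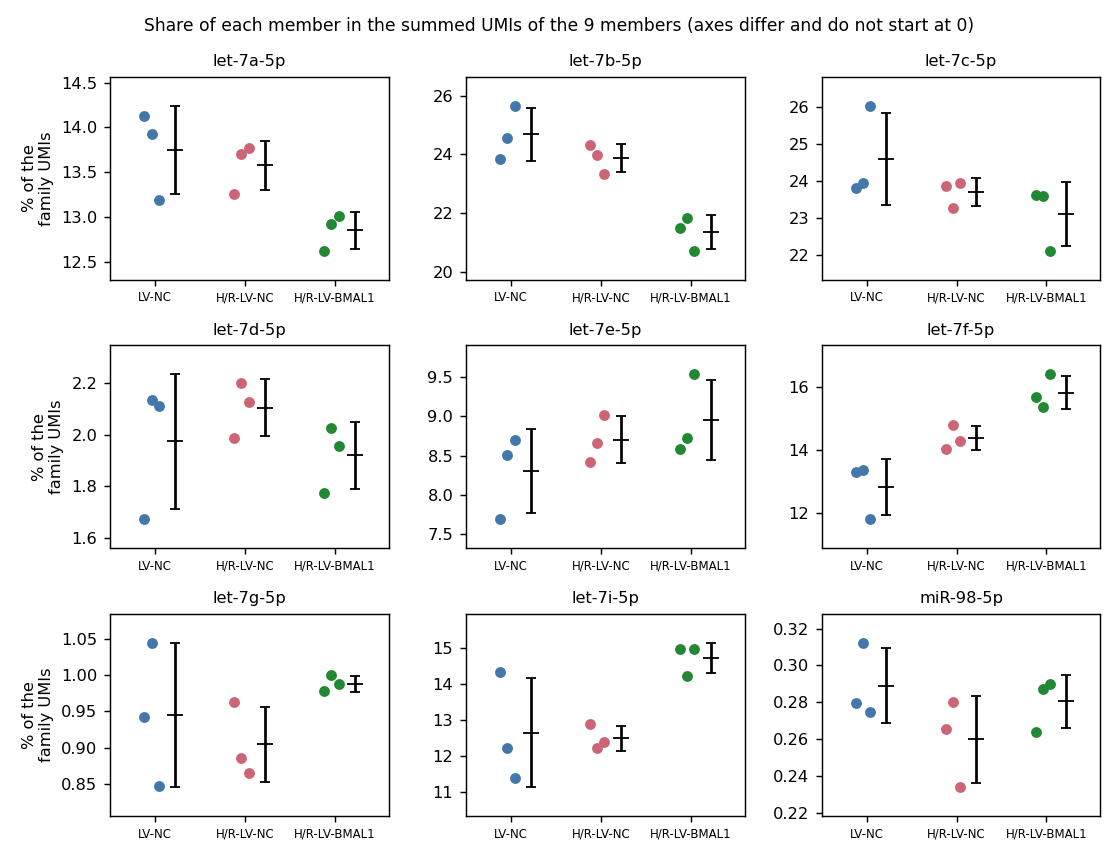
Share of each member in the summed UMIs of the 9 members in each library (points), with the mean and SD of the 3 libraries of a group in black. let-7b-5p lies at 20.7% to 21.8% in BMAL1, below all other libraries, and the mean of let-7f-5p is 12.8% in LV-NC and 15.8% in BMAL1.

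let-7a-5p and let-7f-5p, whose sequences differ by 1 base (G12A), differed in their balance between the groups. They have hairpins 261 bases apart on chromosome 13, but also come from Mirlet7a-2 on chromosome 9 and Mirlet7f-2 on chromosome X. Their ratio is therefore not that of the chromosome 13 hairpins alone, and the pair may share reads. The ratio of let-7a-5p to let-7f-5p was 1.06, 1.04 and 1.12 in LV-NC, 0.945, 0.928 and 0.963 in the H/R control and 0.804, 0.841 and 0.793 in BMAL1. let-7a-5p was thus the more abundant of the pair in every LV-NC library and the less abundant one in every H/R library. The means were 1.07 ± 0.0390, 0.945 ± 0.0178 and 0.813 ± 0.0249 (SD, n = 3). Of the 36 ratios between members, 5 were apart between LV-NC and the H/R control and all 5 contained let-7f-5p. Ratios with a common member are not independent, and these 5 hold the same let-7f-5p counts. The share of let-7f-5p in the family was higher in every H/R control library than in LV-NC, which held for 17.0% of all miRNAs. Ratios were taken between members only, so no share over all miRNAs stands beside their counts. Between the H/R control and BMAL1 21 were apart, 5 of them with let-7f-5p. At both steps 3 were apart, those of let-7f-5p with let-7a-5p, let-7b-5p and let-7c-5p.

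let-7b-5p and let-7c-5p, neighbours on chromosome 15 that differ by G17A, stayed near equal without BMAL1. let-7c-5p also comes from Mirlet7c-1 on chromosome 16, and this pair may share reads too. Their ratio was 1.00, 1.03 and 0.986 in LV-NC and 1.02, 1.03 and 0.975 in the H/R control, and 0.910, 0.926 and 0.937 in BMAL1. The BMAL1 libraries lay below all 6 others. These ratios are descriptions chosen after the shares were seen, with no test.

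The number of G and C bases, 7 in let-7f-5p and miR-98-5p and 10 in let-7b-5p, was set beside the change within the family. Across the 9 members Pearson's r was -0.515 for BMAL1 against the H/R control, -0.432 against LV-NC and -0.0048 for the H/R control against LV-NC. The members share libraries and sequence, and this is a description. Whether base composition had a part in these differences was not tested.

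The opposite arms of the hairpins were mostly scarce. For let-7i there were 0.0163 to 0.0572 3p UMIs per 100 5p UMIs and for let-7e 0.0709 to 0.213. For let-7d there were 13.6 to 18.4, lower in every BMAL1 library than in LV-NC. The hairpins of let-7g and miR-98 had arms that varied more. For let-7g there were 18.3, 3.64 and 6.97 3p UMIs per 100 5p UMIs in LV-NC, 4.03, 8.28 and 2.95 in the H/R control and 1.55, 1.41 and 1.71 in BMAL1. All BMAL1 libraries lay below the other two groups, and the first LV-NC library was far above the rest, with 676 CPM of let-7g-3p against 140 and 200 CPM. Relative to the family total, let-7g-3p was lower in every BMAL1 library than in either other group. That held for 45.8% of all miRNAs against the H/R control and for 29.1% against LV-NC. On that scale let-7d-3p overlapped between BMAL1 and LV-NC. For miR-98 there were 12.1, 13.1 and 8.15 in LV-NC, 9.49, 10.9 and 33.8 in the H/R control and 18.4, 20.6 and 24.4 in BMAL1, higher than in LV-NC but overlapping the H/R control through the third library of that group. Relative to the family total, miR-98-3p was higher in every BMAL1 library than in LV-NC, as were 5.53% of all miRNAs.

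**Figure D4:**
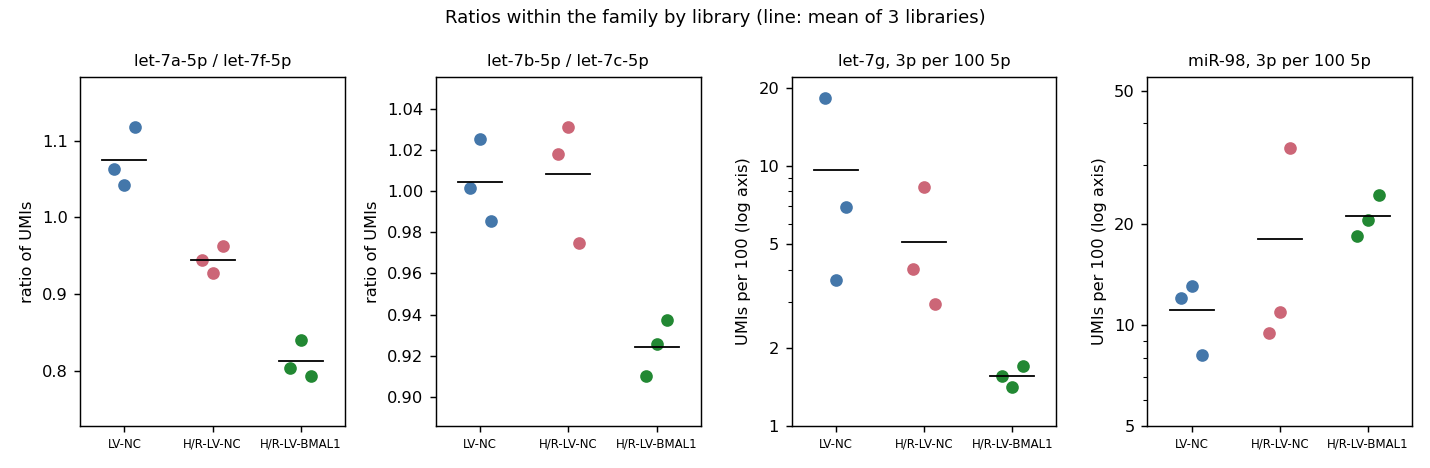
Ratios within the family in each library, from left to right let-7a-5p to let-7f-5p, let-7b-5p to let-7c-5p, and the 3p UMIs per 100 5p UMIs of let-7g and of miR-98 (log axes), with the mean of 3 libraries as a line. The first ratio is 1.04 to 1.12 in LV-NC and 0.793 to 0.841 in BMAL1, without overlap between groups.

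Of the 14 other products of the family (the 3p arms, let-7j and let-7k), 0 were called with TMM in any comparison, where 0.0%, 2.38% and 0.238% of all miRNAs were. With total UMIs, and also within the family, 1 was called lower in BMAL1 against the H/R control, let-7c-1-3p, which held 21 to 65 UMIs in a library and had a log2 fold change of -1.48 with total UMIs (SE 0.43, edgeR adjusted p = 0.0311), and 1 against LV-NC, let-7g-3p, with -2.61 (SE 0.59, edgeR adjusted p = 0.0308). Of all miRNAs, 28.6% were called lower in the first of these comparisons with total UMIs and 30.1% within the family, and 4.58% and 3.03% in the second. let-7a-1-3p and let-7c-2-3p have the same mature sequence, so that their counts come from reads that cannot be told apart. let-7f-1-3p, from chromosome 13, had 47.9 to 114 CPM and let-7f-2-3p, from chromosome X, 1.24 to 8.71 CPM.

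The 5 cluster partners are miRNAs of the families that sit beside let-7 hairpins in the mouse genome. let-7e-5p and miR-125a-5p are neighbours in Spaca6. The ratio of let-7e-5p to miR-125a-5p was 0.596, 0.529 and 0.558 in LV-NC, 0.534, 0.433 and 0.670 in the H/R control and 1.22, 1.06 and 0.874 in BMAL1, higher in every BMAL1 library. Relative to the family total let-7e-5p differed by 0.04 between BMAL1 and the H/R control (SE 0.07, edgeR adjusted p = 0.651), while miR-125a-5p fell by 0.91 on the log2 scale (SE 0.18, edgeR adjusted p = 0.0178). Of the 5 cluster partners tested, 3 were called lower in this fit and 0 higher, namely miR-125a-5p, miR-125b-5p (-0.41) and miR-99b-5p (-0.41), beside 30.1% of all miRNAs called lower, and the same number with total UMIs, beside 28.6%. Against LV-NC 1 was called lower relative to the family, miR-125a-5p, beside 3.03%, and 2 with total UMIs, miR-125a-5p and miR-125b-5p, beside 4.58%. miR-100-5p, which shares its host transcript with Mirlet7a-2, and miR-99a-5p, beside Mirlet7c-1, had -0.23 and -0.56 and did not pass. With TMM 0 of the 5 were called in any comparison, with a median of 0.55 against 0.97 for the members, so that the partners were called lower relative to the library or to let-7 and not on the TMM scale. miR-125a-5p had a TMM log2 fold change of 0.09.

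Outside these lists, the 5 miRNAs whose TMM-scaled levels ran most like the mean of the members over the 9 libraries were miR-196a-5p (r = 0.991), miR-30a-3p (0.989), miR-101c (0.981), miR-574-5p (0.977) and miR-27b-3p (0.976), out of 264 with a mean of at least 100 CPM, whose median r was 0.667. All points share the scaling factors. With total UMIs the same 5 had r of 0.749, 0.653, 0.497, 0.378 and 0.454, and the median r of the 264 was -0.216. The list depended on the scaling. With total UMIs miR-574-5p ranked 15 and miR-27b-3p 8, while miR-122-5p (r = 0.643) ranked 3 and miR-146a-5p (0.482) ranked 5. Among the members, the 36 pairs had r of 0.918 to 0.993 with TMM and of -0.419 to 0.850, with a median of 0.320, in CPM.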

How the data were processed

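Exosomal small RNA of 9 TCMK-1 libraries was analysed, grouped by the labels. The authors deposited UMI counts for each mature miRNA without normalization. They also deposited CPM, which equal the UMI counts scaled to the library total. Per the labels, cutadapt 2.7, Bowtie 1.3.0 and edgeR were used, with no role given, and the sources used here do not give the genome build. Of the positions also listed in GRCm38.p6, 1671 of 1674 were equal. All count columns were assigned.

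UMI counts were filtered by filterByExpr (296 of 1978 miRNAs removed), scaled by TMM and fitted in edgeR 4.0.16 (R 4.3.3) by 1 quasi-likelihood fit over all 9 libraries with a mean per group. Calls had a Benjamini-Hochberg adjusted p under 0.05 over 1682 miRNAs. The fit was repeated with total UMIs and with the summed UMIs of the 9 members as library size. The steps were tested on simulated counts with changes larger than those of the members, which does not tell how reliable calls of small changes are. Libraries of a group differed beyond sampling noise (chi-square per degree of freedom 12.0 to 169), so none was taken as a copy.

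Alternatives were a replicate block, fits of 2 groups alone, filters (none, or 50 UMIs on average), leaving out each library, RLE or upper-quartile scaling, DESeq2 1.42.0 and limma-voom (limma 3.58.1). Named were the 9 members, 14 other let-7 products, 5 cluster partners, miRNAs with the same seed and the 5 most alike. Members and lists were chosen with earlier results of these data known. Likeness was Pearson's r of log2(TMM-scaled CPM + 1). Annotation came from GENCODE M21 and sequences from RefSeq. Python 3.11.15 and matplotlib 3.10.9 were used for tables and figures.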

Additional observations from a re-analysis of the deposited data

How the results depend on the processing

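The TMM result for the members was 0 calls in each comparison, and no member was called under limma-voom, RLE or upper-quartile scaling, either other filter, 2 groups alone, the replicate block or total UMIs. DESeq2 called 8 members in BMAL1 against the H/R control and 1 against LV-NC. Without 1 library the count in the first comparison was 0 to 6. The median of the members was 0.11 with total UMIs in place of 0.97, and -0.057 in place of 0.50 against LV-NC. Without 1 library the medians were 0.66 to 1.15 and 0.25 to 0.70, and -0.62 to -0.19 in the H/R control against LV-NC. The calls among all miRNAs moved more. In BMAL1 against the H/R control they were 40, and 240 with DESeq2, 72 with a mean of at least 50 UMIs, 519 with total UMIs, 0 with no filter, with 2 groups alone, with the replicate block and with RLE or upper-quartile scaling, and 0 to 139 without 1 library. Against LV-NC they were 4, and 145 with DESeq2, 10 with at least 50 UMIs, 105 with total UMIs, 2 with no filter or upper-quartile scaling, 1 with 2 groups alone, and 0 to 66 without 1 library. In the H/R control against LV-NC they were 0, and 2 with DESeq2, 1 with total UMIs and 0 to 1 without 1 library. The cause of these differences was not tested.

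With total UMIs 10 log2 fold changes turned their sign. In BMAL1 against the H/R control let-7a-5p had -0.011, let-7b-5p -0.092 and let-7d-5p -0.061. Against LV-NC let-7a-5p had -0.13, let-7b-5p -0.23, let-7c-5p -0.11, let-7d-5p -0.057 and miR-98-5p -0.070. In the H/R control against LV-NC let-7d-5p had 0.0041 and let-7f-5p 0.065.

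Relative to the family total, 2 members were called in each BMAL1 comparison, and limma-voom called these members too. With the replicate block 0 were called in both, and with 2 groups alone 3 against the H/R control, let-7f-5p being added (adjusted p = 0.0498), and 0 against LV-NC. Without 1 library the counts were 0 to 3 against the H/R control and 0 to 2 against LV-NC. Same-numbered libraries had correlations of -0.156 to 0.132 in their deviations from the group means, so the numbers were not taken as pairs. Small changes within the family turned their sign without 1 library. In the H/R control against LV-NC the ranges were -0.047 to 0.0019 for let-7a-5p, -0.013 to 0.15 for let-7d-5p, -0.14 to 0.017 for let-7g-5p and -0.087 to 0.082 for let-7i-5p. In BMAL1 against LV-NC they were -0.15 to 0.020 for let-7d-5p, -0.0080 to 0.14 for let-7g-5p and -0.078 to 0.015 for miR-98-5p, and against the H/R control -0.0076 to 0.069 for let-7e-5p.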
